A study of Zea mays with 40 samples.

Results

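The starch branching and debranching enzymes of the maize kernel were followed in 8 genes, picked by their identity out of the 65196 rows of the expression table. They were 3 branching enzymes, SBEI (GRMZM2G088753), SBEIIa (GRMZM2G073054) and ae1 (GRMZM2G032628, the gene of SBEIIb), 4 debranching enzymes, the isoamylases su1 (GRMZM2G138060), iso2 (GRMZM2G090905) and iso3 (GRMZM2G150796) with the pullulanase zpu1 (GRMZM2G158043), and the plastid phosphorylase pho1 (GRMZM2G074158). All 8 were found under these names. RNA of seeds from the middle of the ear was sequenced in 4 inbred lines, T191, T147, T209 and T210, on 5 days, namely 10, 20, 30, 40 and lastly 50 DAP (DAP, days since pollination). A group, 1 line on 1 such day, held 2 ears, the biological repeats of the study, so that 20 groups made 40 libraries. T191 and T147 carry the numbers of the recombinant inbred lines that the study took from the extremes of seed filling, and T209 and T210 were taken to be the parents of that population, although no label tells the parents apart. No line carried a transgene or a treatment, and a line is a single inbred genotype.

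Branching enzymes cut a glucan chain and rejoin it as a branch, and debranching enzymes remove branches, so that together they set the branching pattern of amylopectin, the branched glucan of the starch granule. In maize endosperm, loss of ae1 gives the amylose extender kernel and loss of su1 the sweet corn kernel, which accumulates the soluble glucan phytoglycogen. The isoamylase of su1 works alone or together with the protein of iso2, which has no activity of its own, whereas isoamylase 3 and pullulanase also take part in starch breakdown.

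Levels are in FPKM, fragments scaled to transcript length and library size, which is a level per length and allows genes to be set against each other. Differences are on the log2(FPKM + 1) scale, where the added 1 understates changes of genes near 0. Tests used limma with Benjamini-Hochberg adjustment over 43394 genes, those with 1 FPKM or more in 2 or more libraries, with an adjusted p under 0.05 as the threshold. All 8 enzyme genes passed this filter. The 2 ears of a group ranked the genes with a Spearman rho between 0.843 and 0.967, and relative depth, read from the steps of low values, ranged from 0.612 to 2.30 between libraries. The number of reads is unknown. The samples were kernels by label, and markers of both endosperm and embryo were present. The summed FPKM of 4 endosperm markers (the zeins gz27, gz16 and bz15 and their regulator o2) had medians of 29560, 50415, 11324, 67.2 and 32.8 over the 8 libraries of each DAP in turn, none of the 4 at 0 in any library up to 40 DAP. Of the 4, bz15 had the highest medians, with 22864, 36852 and 7118 FPKM at 10, 20 and 30 DAP. The medians of gz27 were unlike those of the sum, with 8.99, 4.96 and 1847 FPKM at these DAP. Its values ranged from 0.289 to 7333.5 FPKM at 10 DAP, 0.744 to 11790 at 20 DAP and 4.47 to 8688 at 30 DAP. Its medians thus describe no course shared by all libraries. The sum of 3 embryo markers had medians of 1023, 11247, 25923, 26064 and 20643, nearly all of it from the oleosin gene ole16, and lec1 was at 0 in all 8 libraries at 50 DAP. The transfer layer invertase gene mn1 had medians of 385, 21.0, 4.20, 0.101 and 0.0338 FPKM, and 4 genes of green tissue summed to between 0.0254 and 4.06 FPKM.

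The 8 genes took different courses over seed filling, and the gene with the highest level was another one at the end than at the start. Of these, ae1, su1, pho1, SBEI and zpu1 had mean levels at 10 DAP that were 847-fold, 46.3-fold, 17.4-fold, 9.86-fold and 7.48-fold those at 50 DAP. SBEIIa differed by 1.90-fold over the same span, iso2 was 1.76-fold higher at 50 than at 10 DAP, and iso3 was 2.88-fold higher at 30 than at 10 DAP. In RNA of kernels, fewer cells of a type and less RNA per cell cannot be told apart. At 10 DAP, ae1 had the highest level, with a median of 393 FPKM over 8 libraries, followed by pho1 with 199, su1 with 120, SBEI with 85.6 and SBEIIa with 37.8 FPKM, and each of these stood above the next in 8 of 8 libraries. At 50 DAP, SBEIIa had the highest level, with a median of 17.1 FPKM, and stood above pho1 (12.4 FPKM) in 8 of 8 libraries, while ae1 had the lowest, with a median of 0.406 FPKM. Between them, iso2 was above su1 in 8 of 8 libraries, iso3 above zpu1 in 7 of 8 and su1 above iso3 in 6 of 8. The neighbours pho1 and SBEI, SBEI and iso2, and zpu1 and ae1 were in this order in 5 of 8 libraries each. At 30 DAP, the medians of SBEI, ae1 and pho1 lay between 32.5 and 33.2 FPKM, and SBEI was above ae1 in 5 of 8 libraries.

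**Figure D1:**
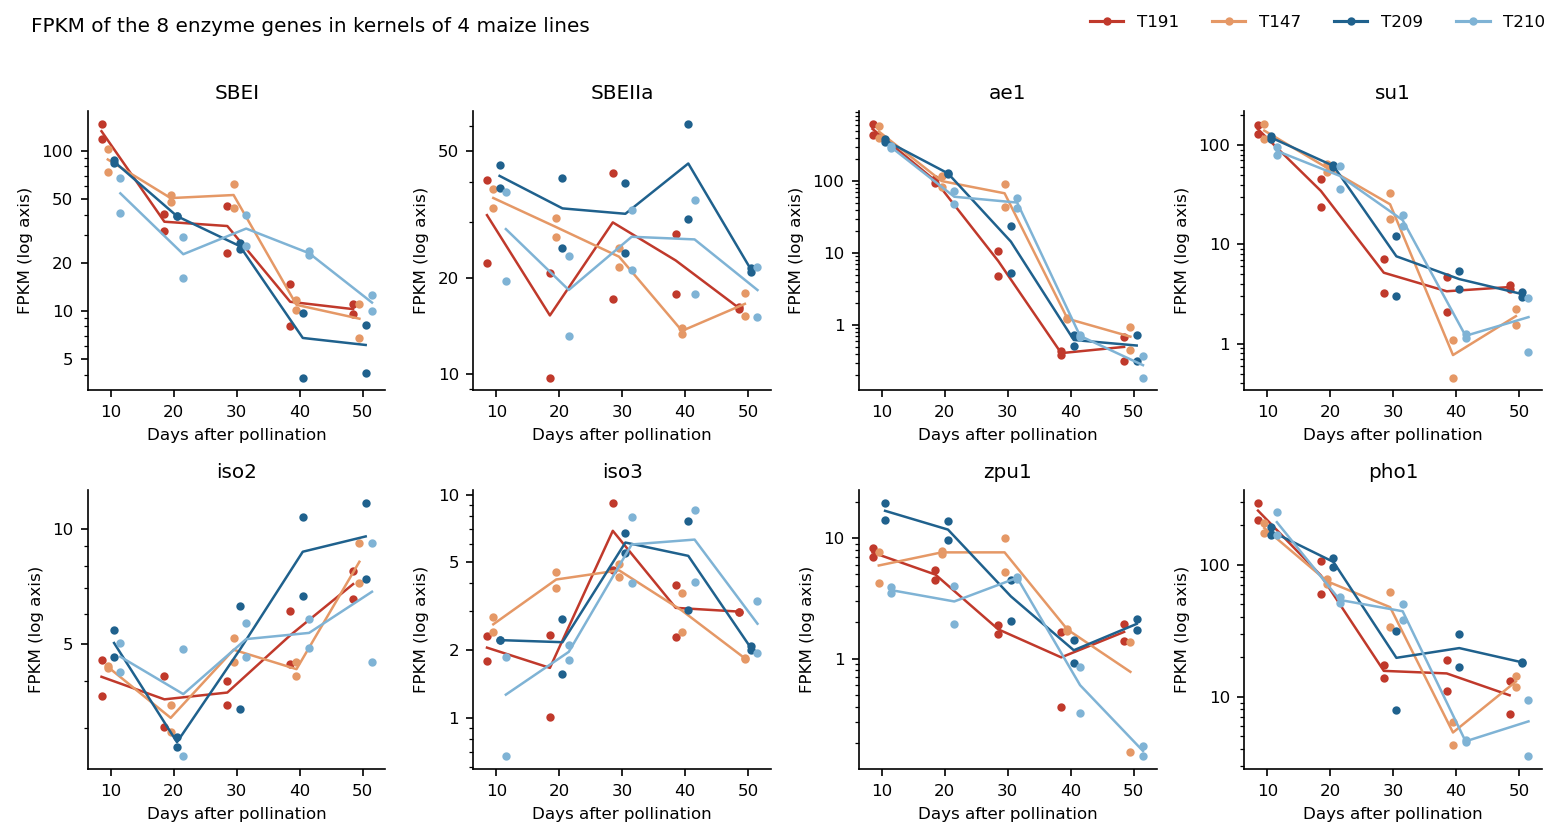
FPKM (log axis, own scale in each panel) of the 8 genes against DAP, with a point for each ear and a line through the mean of both ears in each inbred line. The levels of ae1 run from 623 FPKM at 10 DAP down to 0.187 FPKM at 50 DAP, whereas those of SBEIIa stay between 9.75 and 61 FPKM and those of iso2 between 2.53 and 11.7 FPKM.

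Steps between successive DAP, averaged over the 4 lines, showed when these changes took place. At the step to 20 DAP, 5 of the 8 genes passed the test and all 5 fell, against 35.6% of all genes tested (9.86% higher and 25.7% lower). At the step to 30 DAP, 4 fell and 2 rose, against 36.9% of all genes (21.2% higher and 15.7% lower). At the step to 40 DAP, 5 fell and none rose, against 35.9% of all genes (17.3% higher and 18.6% lower). At the step to 50 DAP, 1 rose and 1 fell, against 32.8% of all genes (15.9% higher and 16.9% lower). With 8 genes, this count does not set them apart from all genes. The median difference of the 8 genes was -0.91, -0.30, -1.30 and -0.14 over the 4 steps, beside -0.05, 0.07, -0.01 and -0.02 for all genes tested. Of all genes called from 10 to 20 DAP, 27.7% rose, and this share was 43.6% after the libraries were rescaled by the median ratio, so that how many more genes fell than rose in the background of that step depended on the scaling.

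**Figure D2:**
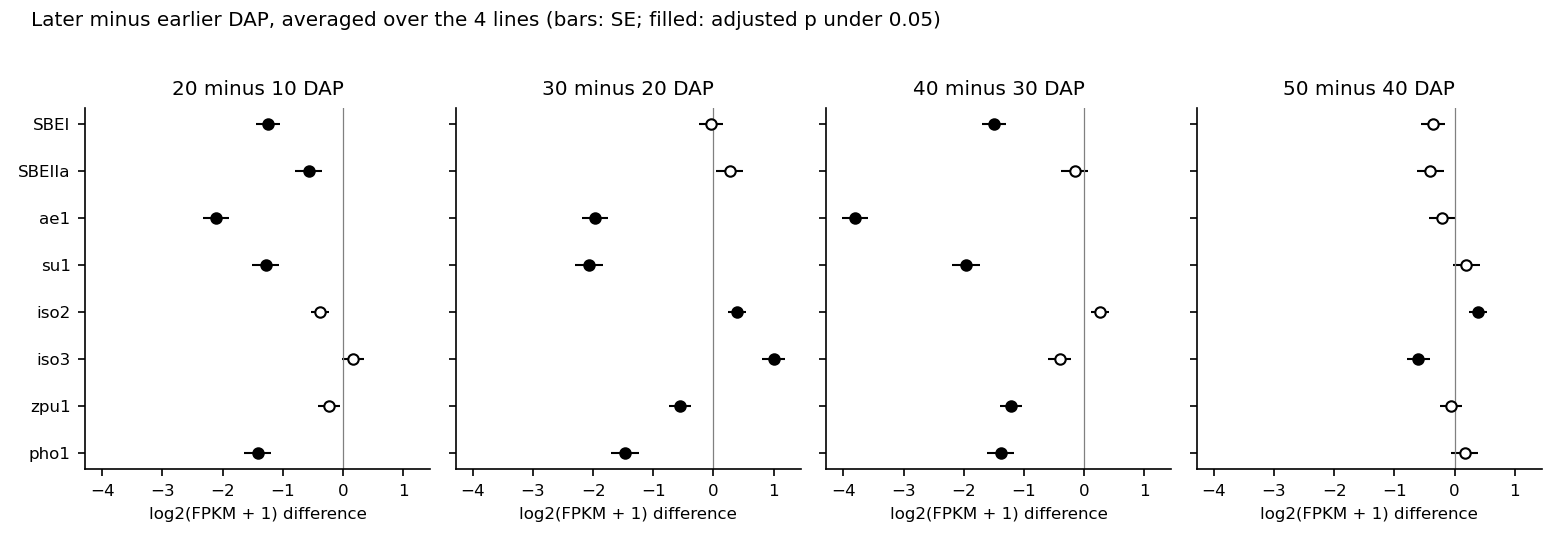
Difference in log2(FPKM + 1) between successive DAP, averaged over the 4 lines, for each gene. Bars are the standard error, and filled points passed an adjusted p of 0.05. The point of ae1 from 30 to 40 DAP, at -3.81, lies farthest from 0, and all 8 points from 40 to 50 DAP lie between -0.60 and 0.39.

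Among the branching enzymes, ae1, the endosperm isoform, which transfers shorter chains than SBEI, had the highest level early and the steepest course. Its lowest, median and highest values over the 8 libraries were 284, 393 and 623 FPKM at 10 DAP, 47.9, 101 and 130 FPKM at 20 DAP, and 4.86, 32.9 and 91.8 FPKM at 30 DAP. They were 0.380, 0.706 and 1.25 FPKM at 40 DAP and 0.187, 0.406 and 0.936 FPKM at 50 DAP. The libraries at 20 DAP thus did not overlap those at 10 DAP, nor those at 40 DAP those at 30 DAP, whereas the values at 30 DAP spread over a wide range that reached into those at 20 DAP. In log2(FPKM + 1), ae1 fell by 2.11 (SE 0.214, limma adjusted p = 2.08e-08), by 1.97 (adjusted p = 1.04e-07) and by 3.81 (adjusted p = 1.78e-12) at the first 3 steps. The last difference, -0.21, did not pass (adjusted p = 0.492). The endosperm marker sum had a higher median at 20 than at 10 DAP and lower medians at 30 and 40 DAP. Its member gz27 had a higher median at 30 than at 20 DAP, over libraries that ranged widely at both. The part of the marker sum in the course of ae1 was not tested.

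SBEI, the isoform that prefers amylose-like chains in the test tube, fell in a stepwise way when averaged over the 4 lines. Its lowest, median and highest values were 40.9, 85.6 and 147.4 FPKM at 10 DAP, 16.1, 39.1 and 53.2 FPKM at 20 DAP, 22.9, 33.2 and 62.1 FPKM at 30 DAP, 3.83, 10.9 and 23.5 FPKM at 40 DAP, and 4.11, 9.77 and 12.5 FPKM at 50 DAP. Neighbouring DAP overlapped at each step. SBEI fell by 1.24 on the log2 scale at the first step (SE 0.196, limma adjusted p = 1.54e-05) and by 1.49 at the step to 40 DAP (adjusted p = 1.65e-06). Its differences at the steps to 30 and to 50 DAP were -0.04 and -0.36 (adjusted p = 0.907 and 0.170). Within lines, the difference at the step to 40 DAP was -1.47 in T191, -2.16 in T147 and -1.87 in T209. In T210 it was -0.46 and did not pass (limma adjusted p = 0.563). RefSeq lists GRMZM2G088753 and a neighbouring identifier, GRMZM2G088737, under the same entries, and the table holds a row for each, with 1.14 to 5.53 FPKM for the second, so reads of SBEI may be divided between them.

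SBEIIa, which in maize is the main branching enzyme of the leaf, changed least of the 3 branching enzymes. Its lowest, median and highest values were 19.6, 37.8 and 45.5 FPKM at 10 DAP, 9.75, 24.2 and 41.4 FPKM at 20 DAP, 17.1, 24.5 and 42.7 FPKM at 30 DAP, 13.4, 22.7 and 61 FPKM at 40 DAP, and 15.1, 17.1 and 21.6 FPKM at 50 DAP. All neighbouring DAP overlapped. Only the first step passed the test, with a fall of 0.57 on the log2 scale (SE 0.224, limma adjusted p = 0.0494). Its differences at the later steps were 0.27, -0.15 and -0.41 (adjusted p = 0.388, 0.654 and 0.174). The call of the first step was lost after rescaling, where the difference was -0.33 (adjusted p = 0.199), and in 25 of the 40 models that each left out 1 library, with differences from -0.70 to -0.44.

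With these courses the make-up of the branching enzyme transcripts turned over. The summed FPKM of the 3 genes had a median of 513 at 10 DAP and 161, 98.7, 38.5 and 27.7 at the later DAP. At 10 DAP, ae1 held a median of 76.3% of this sum (lowest 74.0%, highest 82.4%), and at 20 DAP 61.1% (47.6% to 72.2%). At 30 DAP its share had a median of 31.8% and ranged from 5.26% to 55.7% between libraries. At 40 and 50 DAP its share had medians of 1.45% and 1.41% and was at most 4.85%, while SBEIIa held a median of 62.4% and 64%. The leading gene of the 3 was ae1 in 8 of 8 libraries at both 10 and 20 DAP. At 30 DAP it was SBEI in 4, ae1 in 3 and SBEIIa in 1 of the 8 libraries, and at 40 and 50 DAP it was SBEIIa in 7 and in 8 of 8.

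The ratio of SBEIIa to ae1 within a library had a median of 0.0765 at 10 DAP, 0.224 at 20 DAP, 1.2 at 30 DAP, 47.9 at 40 DAP and 40.7 at 50 DAP. Steps were tested on the log2 ratio with 1 added to both FPKM values, which understates changes where ae1 is near 0. The medians carry no added 1, so they can move otherwise than the tested differences. On the tested scale, this ratio was higher in all 4 lines at each of the first 3 steps, by 1.54, 2.24 and 3.66 (exact permutation within lines, two-sided, adjusted p = 0.00343, 0.0132 and 0.00343). The ratio of SBEI to ae1 had medians of 0.223, 0.359, 1.02, 17.2 and 25.5, and it too was higher in all 4 lines at the first 3 steps, by 0.87, 1.92 and 2.32 (exact permutation, adjusted p = 0.00343, 0.00926 and 0.0103). From 40 to 50 DAP, both differences missed the threshold, at -0.19 and -0.14 (exact permutation, adjusted p = 0.494 and 0.535). The smallest p that these tests can give before adjustment is 0.00154.

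**Figure D3:**
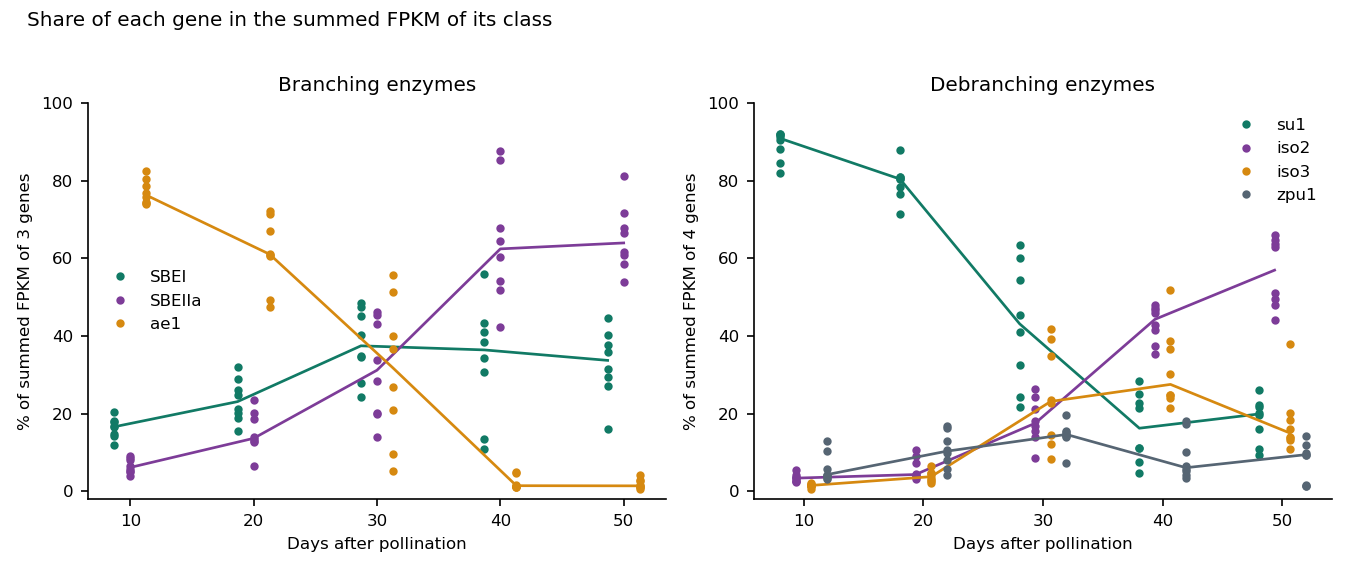
Share (%) of each gene in the summed FPKM of the 3 branching enzymes (left) and of the 4 debranching enzymes (right) against DAP, with a point for each of the 8 libraries of a DAP and a line through the medians. The share of ae1 has a median of 76.3% at 10 DAP and of 1.41% at 50 DAP, and that of su1 a median of 90.9% at 10 DAP and of 19.9% at 50 DAP.

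The debranching enzymes showed a like exchange. The isoamylase gene su1 had lowest, median and highest values of 79.7, 120 and 163 FPKM at 10 DAP, 23.8, 57 and 63.9 FPKM at 20 DAP, 3.02, 13.7 and 32.5 FPKM at 30 DAP, 0.456, 1.67 and 5.39 FPKM at 40 DAP, and 0.821, 2.92 and 3.90 FPKM at 50 DAP. The libraries at 20 DAP lay below all of those at 10 DAP, and later neighbouring DAP overlapped. It fell by 1.28 (SE 0.227, limma adjusted p = 6.90e-05), 2.07 (adjusted p = 1.20e-07) and 1.96 (adjusted p = 2.50e-07) on the log2 scale at the first 3 steps, and differed by 0.20 at the last (adjusted p = 0.561).

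The gene of its partner subunit, iso2, was low throughout, and its lowest group mean stood at 20 DAP and its highest at 50 DAP in all 4 lines. Its lowest, median and highest values were 3.65, 4.45 and 5.43 FPKM at 10 DAP, 2.53, 2.98 and 4.85 FPKM at 20 DAP, 3.37, 4.54 and 6.28 FPKM at 30 DAP, 4.11, 5.34 and 10.8 FPKM at 40 DAP, and 4.49, 7.59 and 11.7 FPKM at 50 DAP. Values of neighbouring DAP overlapped at each step. Its rises from 20 to 30 DAP (0.39, limma adjusted p = 0.0458) and from 40 to 50 DAP (0.39, adjusted p = 0.0492) lay at the threshold, and were lost in 22 and in 29 of the 40 models that each left out 1 library. Its differences from 10 to 20 DAP (-0.37, adjusted p = 0.0548) and from 30 to 40 DAP (0.26, adjusted p = 0.180) did not pass.

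Isoamylase 3, an enzyme of leaf starch breakdown in Arabidopsis, had its highest level in the middle of filling. The lowest, median and highest values of iso3 were 0.669, 2.22 and 2.81 FPKM at 10 DAP, 1.00, 2.23 and 4.51 FPKM at 20 DAP, 4.02, 5.16 and 9.19 FPKM at 30 DAP, 2.29, 3.76 and 8.52 FPKM at 40 DAP, and 1.84, 2.04 and 3.32 FPKM at 50 DAP. Its highest group mean stood at 30 DAP in T191, T147 and T209 and at 40 DAP in T210. It rose by 1.00 on the log2 scale from 20 to 30 DAP (SE 0.189, limma adjusted p = 0.000169) and fell by 0.60 from 40 to 50 DAP (adjusted p = 0.0164), and the 2 other differences, 0.17 and -0.40, did not pass (adjusted p = 0.575 and 0.103). After rescaling, the difference from 30 to 40 DAP was -0.46 and passed (adjusted p = 0.0241). The fall from 40 to 50 DAP missed the threshold without ear 2 of T209 at 40 DAP (-0.47, adjusted p = 0.0655), without ear 1 of T210 at 40 DAP (adjusted p = 0.0586) and without ear 1 of T210 at 50 DAP (adjusted p = 0.0501).

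The pullulanase gene zpu1 had lowest, median and highest values of 3.47, 7.27 and 19.6 FPKM at 10 DAP, 1.92, 6.41 and 13.8 FPKM at 20 DAP, 1.59, 4.55 and 10.0 FPKM at 30 DAP, 0.354, 1.17 and 1.77 FPKM at 40 DAP, and 0.154, 1.40 and 2.15 FPKM at 50 DAP. The wide ranges at the first 3 DAP held large differences between lines. Averaged over the lines, zpu1 differed by -0.23 at the step to 20 DAP (limma adjusted p = 0.364), fell by 0.56 at the step to 30 DAP (adjusted p = 0.0183), fell by 1.22 at the step to 40 DAP (SE 0.183, adjusted p = 1.05e-05), and differed by -0.06 at the last step (adjusted p = 0.871). The fall at the step to 30 DAP missed the threshold with a pseudocount of 0.1 (-0.67, adjusted p = 0.0808). It also did so in 4 of the 40 models that each left out 1 library, namely without ear 2 of T147 or ear 1 of T209 at 30 DAP (adjusted p = 0.0677 and 0.0623) and without ear 1 of T209 or ear 1 of T210 at 20 DAP (adjusted p = 0.0514 and 0.0658).

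Of the summed FPKM of the 4 debranching enzymes, su1 held a median of 90.9% at 10 DAP and 80.4% at 20 DAP. Its share had a median of 43.1% at 30 DAP (21.7% to 63.4%), and of 16.3% and 19.9% at the last 2 DAP. The share of iso2 had medians of 3.40%, 4.33%, 17.5%, 44.3% and 57% over the 5 DAP. It was the leading gene of the 4 in 7 of 8 libraries at 40 DAP and in 8 of 8 at 50 DAP. The ratio of iso2 to su1 had medians of 0.0387, 0.0543, 0.445, 3.13 and 3.20. Tested with 1 added to both FPKM values, it was higher in all 4 lines at the first 3 steps, by 0.91, 2.45 and 2.23 on the log2 scale (exact permutation, adjusted p = 0.0132, 0.00343 and 0.00343). The ratio of iso3 to su1 was higher in all 4 lines at the first 2 steps, by 1.45 and 3.07 (exact permutation, adjusted p = 0.00343 each), higher in 3 of 4 lines at the step to 40 DAP, by 1.56 (adjusted p = 0.0473), and lower in 4 of 4 lines at the step to 50 DAP, by -0.80 (adjusted p = 0.0103). The call at the step to 40 DAP was lost in 11 of the 40 tests that each left out 1 library (adjusted p up to 0.0782), and the call at the step to 50 DAP without ear 1 of T210 at 40 DAP (-0.69, adjusted p = 0.0661). The ratio of zpu1 to su1 was higher at the first 2 steps, by 1.05 and 1.51 (exact permutation, adjusted p = 0.00343 each), and its difference from 30 to 40 DAP, 0.74, was positive in 2 of 4 lines (adjusted p = 0.104). In all, 15 of the 20 ratio steps passed the test. Each ratio was taken over ae1 or su1, the steepest falling genes of their classes, whose own falls passed at the first 3 steps. The rises of the ratios therefore restate these falls in part, and ratios of other genes over ae1 or su1 were not counted.

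The plastid phosphorylase pho1, which lengthens or shortens glucan chains at their ends, followed su1 and ae1. Its lowest, median and highest values were 168, 199 and 294 FPKM at 10 DAP, 51, 74.8 and 113 FPKM at 20 DAP, 8.0, 32.5 and 61.7 FPKM at 30 DAP, 4.31, 8.70 and 29.9 FPKM at 40 DAP, and 3.53, 12.4 and 18.3 FPKM at 50 DAP. The libraries at 20 DAP lay below all of those at 10 DAP. On the log2 scale it fell by 1.42 (SE 0.230, limma adjusted p = 2.25e-05), 1.47 (adjusted p = 1.70e-05) and 1.39 (adjusted p = 3.80e-05) at the first 3 steps, and the last difference, 0.17, did not pass (adjusted p = 0.647).

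The course over DAP differed between the lines for 5 of the 8 genes, against 22.9% of all genes tested (F test of the line by DAP interaction in limma). These were ae1 (F = 5.73, adjusted p = 0.00209), su1 (adjusted p = 0.00556), pho1 (adjusted p = 0.00565), zpu1 (adjusted p = 0.00671) and SBEI (adjusted p = 0.0237). The adjusted p was 0.535 for SBEIIa, 0.624 for iso2 and 0.215 for iso3. Steps within single lines passed the test in 34 of 128 cases for the 8 genes, against 12.6% over all genes. For ae1 the step to 30 DAP passed in T191 and T209 and missed the threshold in T147 and T210, although the difference between lines was not tested for single steps. From 20 to 30 DAP, ae1 fell by 3.62 in T191 (limma adjusted p = 2.19e-06) and by 3.37 in T209 (adjusted p = 6.49e-06), while the differences were -0.63 in T147 and -0.25 in T210. From 30 to 40 DAP it fell by 4.85 in T147 and 4.89 in T210, and by 2.55 in T191 and 2.95 in T209.

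For su1 and pho1 the steps that passed were shared in part with those of ae1. At the step to 30 DAP, su1 fell by 2.53 in T191, 3.11 in T209 and 1.39 in T210 (limma adjusted p = 0.000331, 3.53e-05 and 0.0482), and the difference in T147, -1.24, was close in size to that in T210 and missed the threshold (adjusted p = 0.117). The call in T210 was lost in 27 of the 40 models that each left out 1 library, with a pseudocount of 0.1, without the filter on low values and with the ear number as a block. From 30 to 40 DAP, su1 fell by 3.86 in T147 and 3.07 in T210, and its differences of -0.49 in T191 and -0.43 in T209 did not pass (adjusted p = 0.573 and 0.621). The phosphorylase gene pho1 fell by 2.28 in T191 and 2.63 in T209 at the step to 30 DAP, beside differences of -0.70 in T147 and -0.29 in T210 that did not pass (adjusted p = 0.484 and 0.828). It fell by 2.89 in T147 and 3.01 in T210 at the step to 40 DAP, and its differences of -0.10 in T191 and 0.46 in T209 did not pass (adjusted p = 0.986 and 0.596). None of the 32 differences from 40 to 50 DAP within a line passed the test in limma, against 10.5% over all genes, and 6 of them had an unadjusted p under 0.05.

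The first pair of lines, T191 against T147, differed mainly at 30 DAP. Averaged over the 5 DAP, 1 of the 8 genes passed the test, ae1, which was lower in T191 by -0.73 on the log2 scale (SE 0.191, limma adjusted p = 0.00661), against 22.4% of all genes. The differences of the other 7 genes lay between -0.32 for zpu1 and -0.01 for pho1. At single DAP, 4 of 40 differences passed, against 9.52% over all genes, and all 4 were at 30 DAP, where 12.5% of all genes were called. At the other 4 DAP, where 6.24%, 6.30%, 13.8% and 8.69% of all genes were called, none of 32 differences passed in limma, and 4 had an unadjusted p under 0.05.

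At 30 DAP the ears of T191 had 10.6 and 4.86 FPKM of ae1, against 91.8 and 43.5 FPKM in T147. Both ears of T191 were below both of T147, and the means were 7.73 ± 4.05 FPKM in T191 and 67.7 ± 34.1 FPKM in T147 (SD, n = 2 each). The difference was -2.96 on the log2 scale (SE 0.428, limma adjusted p = 3.58e-05), and it stayed between -3.49 and -2.43 when any 1 library was left out. The isoamylase gene su1 had 3.20 and 7.15 FPKM in T191, against 32.5 and 18.1 FPKM in T147 (difference -2.11, adjusted p = 0.00230). The pullulanase gene zpu1 had 1.90 and 1.59 FPKM in T191, against 10.0 and 5.18 FPKM in T147 (difference -1.59, adjusted p = 0.00413). The phosphorylase gene pho1 had 14.0 and 17.4 FPKM in T191, against 61.7 and 33.6 FPKM in T147 (difference -1.49, adjusted p = 0.0319). For all 4 genes the ears of the lines did not overlap, although the share of all genes with ears apart was not counted. The calls of su1, zpu1 and pho1 were each lost without ear 1 of T147, where the adjusted p was 0.0717 for su1, 0.131 for zpu1 and 0.357 for pho1. Without ear 1 of T191 it was 0.0529 for su1 and 0.151 for pho1, and without ear 2 of T191 it was 0.0677 for pho1.

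The other 4 genes did not pass at 30 DAP. The differences in log2(FPKM + 1) between T191 and T147 were -0.68 for SBEI, 0.21 for SBEIIa, -0.30 for iso2 and 0.44 for iso3. The ears overlapped for SBEI, SBEIIa and iso3, and for iso2 those of T191 (3.45 and 4.00 FPKM) were below those of T147 (4.47 and 5.18 FPKM). The endosperm marker sum was also lower at 30 DAP in T191, with 5188 and 359 FPKM, against 31941 and 14775 FPKM in T147, and the embryo marker sum ranged from 25658 to 40339 FPKM in T191, against 13428 to 20387 FPKM in T147. The part of these markers in the line differences was not tested.

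At 40 DAP the direction of 2 genes was the other way round. The ears of T191 had 4.64 and 2.09 FPKM of su1, against 0.456 and 1.08 FPKM in T147, and 19.0 and 11 FPKM of pho1, against 4.31 and 6.41 FPKM. Neither passed the test (differences 1.26 and 1.3, limma adjusted p = 0.0649 and 0.0598), although both did with a pseudocount of 0.1 (adjusted p = 0.0152 and 0.0459).

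**Figure D4:**
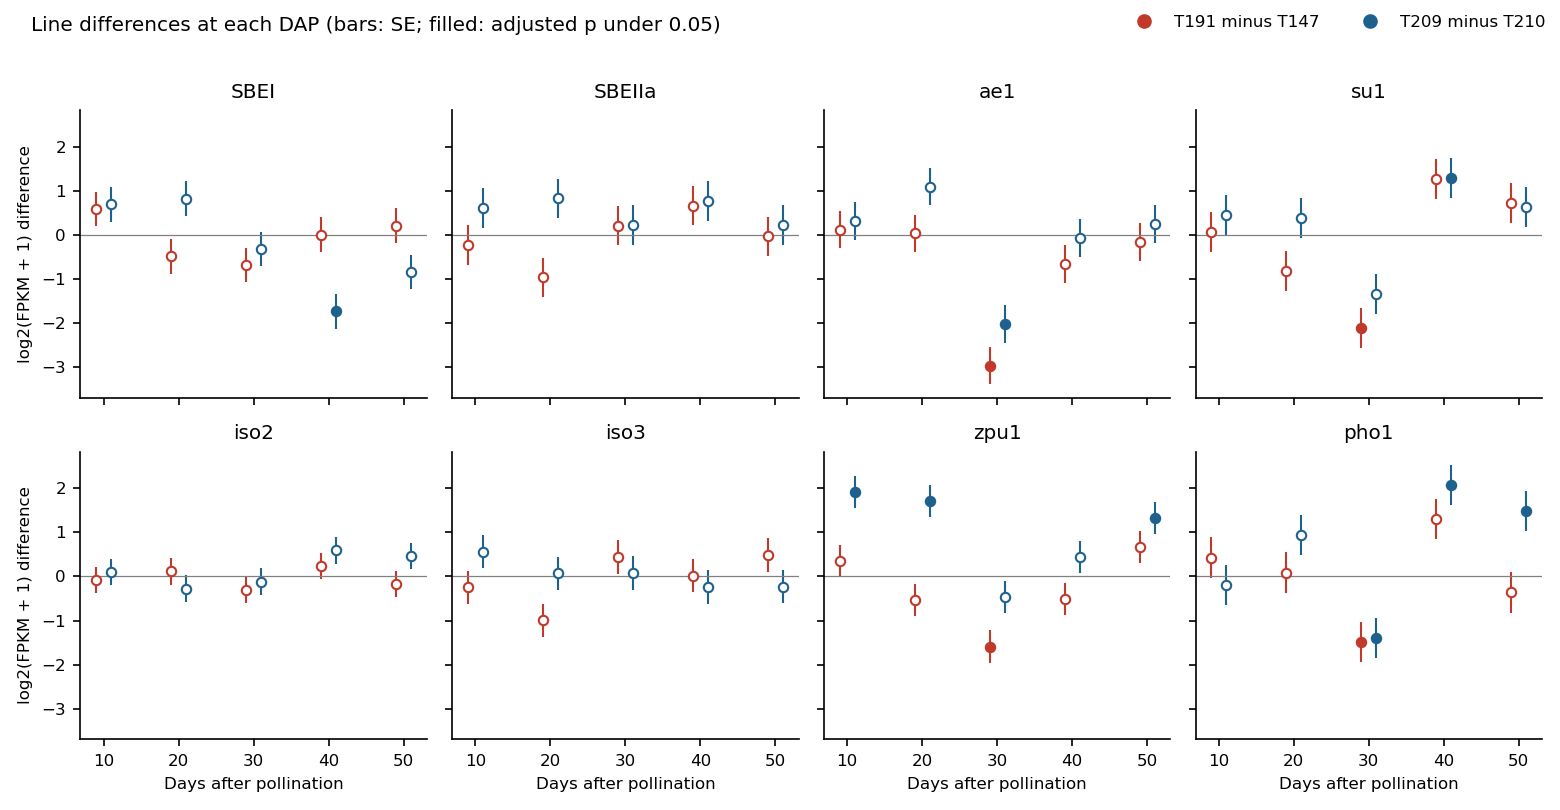
Difference in log2(FPKM + 1) at each DAP for T191 minus T147 (red) and T209 minus T210 (blue), 1 panel for each gene. Bars are the standard error, and filled points passed an adjusted p of 0.05. The points of ae1 at 30 DAP lie at -2.96 and -2.02, and those of zpu1 for T209 minus T210 lie at 1.91 and 1.71 at 10 and 20 DAP.

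**Figure D5:**
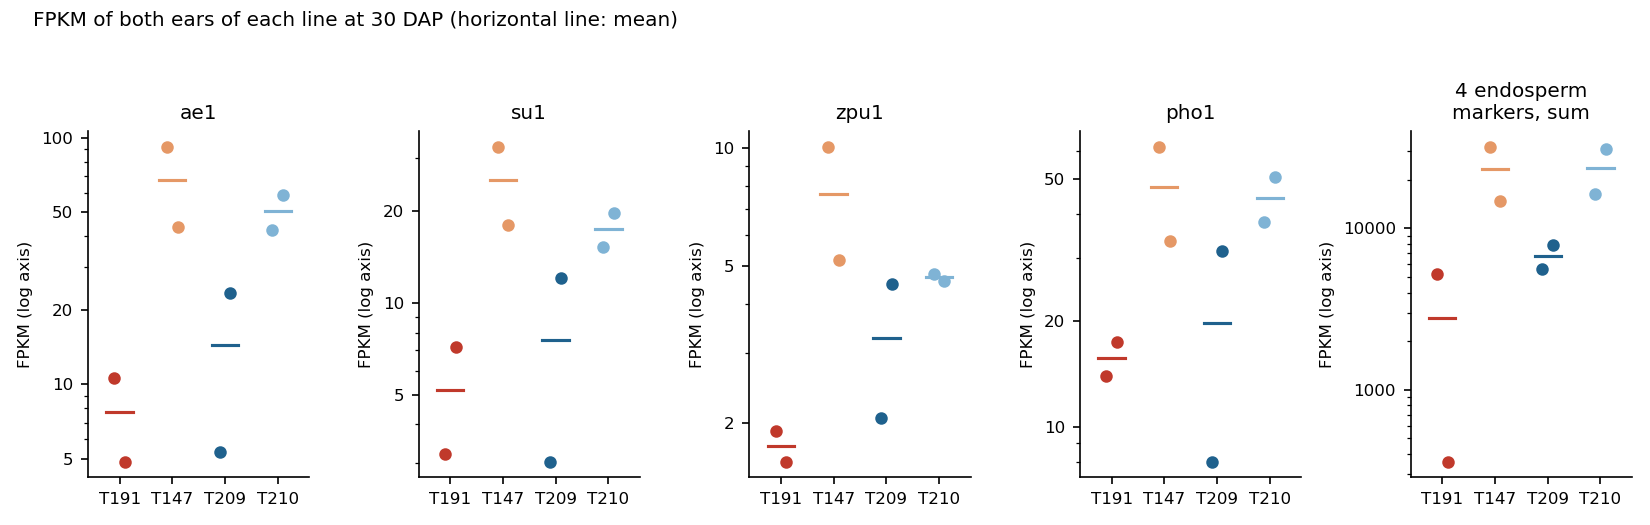
FPKM at 30 DAP (log axis) of ae1, su1, zpu1, pho1 and the sum of 4 endosperm markers in both ears of T191, T147, T209 and T210, with the mean as a horizontal line. In each panel, both ears of T191 lie below both ears of T147, and ear 1 of T209 lies below ear 2.

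In the second pair, T209 against T210, the pullulanase gene had the largest average difference of the 8. Averaged over the 5 DAP, 3 of the 8 genes passed, all higher in T209, against 40.0% of all genes tested (23.2% higher). These were zpu1 (0.99, SE 0.164, limma adjusted p = 3.16e-05), pho1 (0.58, adjusted p = 0.0266) and SBEIIa (0.53, adjusted p = 0.0384). A model of the 20 libraries of these lines alone kept zpu1 and put both others at an adjusted p of 0.0588. The call of SBEIIa was lost in 11 and that of pho1 in 5 of the 40 models that each left out 1 library (adjusted p up to 0.105 and 0.0893). At single DAP, 9 of 40 differences passed, against 15.2% over all genes.

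At 10 DAP the ears of T209 had 19.6 and 14.0 FPKM of zpu1, against 3.92 and 3.47 FPKM in T210 (difference 1.91, SE 0.366, limma adjusted p = 0.000773), where 10.6% of all genes were called. At 20 DAP, where 7.13% of all genes were called, the ears of T209 had 13.8 and 9.66 FPKM, against 4.03 and 1.92 FPKM in T210 (difference 1.71, adjusted p = 0.00385). Without ear 1 of T209 or ear 2 of T210 this call was lost (adjusted p = 0.0574 and 0.0653). At 50 DAP the ears of T209 had 1.73 and 2.15 FPKM, against 0.188 and 0.154 FPKM in T210 (difference 1.32, adjusted p = 0.0125). Leaving out ear 2 of T209 or ear 2 of T210 ended this last call (adjusted p = 0.107 and 0.0582). The ears of the lines did not overlap at any of the 5 DAP for zpu1, and the order was the other way round at 30 DAP, with 2.06 and 4.5 FPKM in T209, against 4.76 and 4.59 FPKM in T210 (difference -0.47, adjusted p = 0.508). At 40 DAP the difference of 0.45 did not pass either (limma adjusted p = 0.418). Ears could thus lie apart without a call, and the share of all genes with ears apart was not counted.

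At 30 DAP, where 13.0% of all genes were called, ae1 was lower in T209, with 5.32 and 23.5 FPKM, against 42.2 and 58.4 FPKM in T210 (difference -2.02, limma adjusted p = 0.00192). Here 1 library decided the size of the difference: it was -1.05 (adjusted p = 0.105) without ear 1 of T209 and -3.00 without ear 2. The phosphorylase gene pho1 had 8.0 and 31.4 FPKM in T209, against 38 and 50.8 FPKM in T210 (difference -1.40, adjusted p = 0.0449), and this call was lost in 21 of the 40 models that each left out 1 library, with a difference of -0.47 without ear 1 of T209. The ears of su1 had 3.02 and 12.1 FPKM in T209, against 15.3 and 19.8 FPKM in T210, and its difference of -1.34 missed the threshold (adjusted p = 0.0515). Ear 1 of T209 at 30 DAP had the highest relative depth of all libraries, 2.30, against 0.980 for ear 2. The ears of T210 had 2.07 and 1.17, and the part of depth was not tested. The endosperm marker sum was 5595 and 7873 FPKM in T209, against 16389 and 30899 FPKM in T210, and its part was not tested. Of the 4 markers, 1 was called lower in T209 (7.50% of all genes were lower), and the median difference of the 4 was -1.96. At 10 and 20 DAP, 1 of the 4 was also called lower in T209 (5.69% and 4.57% of all genes). The median differences of the 4 there were 0.91 and 0.71. In T191 against T147 at 30 DAP, 4 of the 4 were called lower (7.27% of all genes).

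At 40 DAP, where 27.4% of all genes were called, SBEI had 3.83 and 9.71 FPKM in T209, against 22.3 and 23.5 FPKM in T210 (difference -1.73, limma adjusted p = 0.00174, and -1.16 with an adjusted p of 0.0598 without ear 1 of T209). At the same DAP pho1 had 16.8 and 29.9 FPKM in T209, against 4.68 and 4.51 FPKM in T210 (difference 2.07, adjusted p = 0.00150), and su1 had 3.54 and 5.39 FPKM, against 1.24 and 1.15 FPKM (difference 1.29, adjusted p = 0.0351). Rescaling moved the median difference of all genes between these lines at 40 DAP by -0.13, and the share of calls that were higher in T209 was 62.1% as deposited and 41.6% rescaled. On the rescaled values pho1 was still higher (1.66, adjusted p = 0.00521) and SBEI lower (-2.13, adjusted p = 6.89e-05), and su1 missed the threshold (0.97, adjusted p = 0.12). The call of su1 was also lost without ear 2 of T209 (adjusted p = 0.227) and without ear 1 or ear 2 of T210 (adjusted p = 0.0997 and 0.139). At 50 DAP pho1 had 18.3 and 18.1 FPKM in T209, against 9.48 and 3.53 FPKM in T210 (difference 1.48, adjusted p = 0.0260), where 17.9% of all genes were called, 71.6% of them higher in T209 (57.4% rescaled). This call was lost without ear 2 of T210, with a difference of 0.87 (adjusted p = 0.349), and without ear 1 or ear 2 of T209 (adjusted p = 0.10 and 0.122).

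Averaged over the 5 DAP, no ratio of 2 enzymes passed the test between the lines of a pair. Over the 5 ratios and 2 pairs, 0 of 10 exact permutation tests passed after adjustment, and 1 had an unadjusted p under 0.05, that of zpu1 to su1 in T209 against T210 (0.70 on the log2 scale, higher in 4 of 5 DAP, p = 0.0216, adjusted p = 0.216). The smallest p that this design can give is 0.000257. Differences of opposite sign at single DAP cancel in such an average, and ratios at single DAP were not tested between lines. At 30 DAP the ratio of iso3 to su1 was 1.43 and 1.28 in the ears of T191, against 0.132 and 0.268 in T147. At 40 DAP it was 0.844 and 1.10 in T191, against 7.92 and 2.25 in T147.

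The steps and line differences were also counted in 10 other genes of starch synthesis. They were the sucrose synthase gene sh1, the ADP-glucose pyrophosphorylase genes sh2 and bt2, the ADP-glucose transporter gene bt1, the granule-bound starch synthases wx1 and GBSSIIa, the starch synthases ss1, sugary2 and du1, and GRMZM2G391936. At the 4 steps 7, 9, 9 and 3 of these 10 fell, and 1, GBSSIIa, rose from 20 to 30 DAP (0.67, limma adjusted p = 0.0319). At the step to 40 DAP, wx1 fell by 5.82 and sh2 fell by 4.62. At 30 DAP, 8 of the 10 were lower in T191 than in T147 (7.27% of all genes were lower) and 8 of the 10 lower in T209 than in T210 (7.50% of all genes), with median differences of -3.35 and -1.98. Beside these medians of the 10 genes, the median differences of the 8 enzyme genes at 30 DAP were -1.09 and -0.39. Those of ae1, the farthest from 0 of the 8 in both pairs, were -2.96 and -2.02. The summed FPKM of o2 and pbf1, regulators of zein genes, was 0.877 to 24.6 at 30 DAP in T191, against 68.5 to 131 in T147, and 18.8 to 20.1 in T209, against 53.4 to 91.7 in T210.

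Over the 20 group means, the log2(FPKM + 1) of su1 and pho1 had a Pearson r of 0.98, that of ae1 and su1 0.97, and that of ae1 and SBEI 0.92. These values describe groups that share their DAP, and a common fall over DAP is part of them. SBEIIa had an r of at most 0.50 with any of the other 7, and iso2 had an r of -0.66 with ae1 and -0.68 with SBEI. Likeness was computed over 26335 of the genes tested, with the assembled loci left out. Of these, 471 had an r above 0.95 with ae1, and the closest were GRMZM2G021587 (0.995) and GRMZM2G174883 (0.994, leg1 in RefSeq). For su1 this number was 257, for pho1 30 (the closest was su1 itself) and for SBEI 15, of which GRMZM2G311919 was the closest (0.969). No gene among those compared had an r above 0.95 with SBEIIa, iso2, iso3 or zpu1. Their closest genes were GRMZM2G036169 (0.919), GRMZM2G035592 (0.929), GRMZM2G313448 (0.884) and GRMZM2G177076 (0.941).

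The spread between ears set how small a difference could be seen. The residual standard deviation on the log2 scale was 0.291 for iso2, 0.371 for zpu1, 0.387 for iso3, 0.401 for SBEI, 0.445 for ae1, 0.469 for SBEIIa, 0.476 for su1 and 0.481 for pho1. The median ratio of the higher to the lower ear lay between 1.21 for iso2 and 1.55 for SBEIIa. The largest ratio was 8.23, for zpu1 in T147 at 50 DAP (0.168 and 1.38 FPKM), at levels near 0. Above 1 FPKM in both ears it was 4.42, for ae1 in T209 at 30 DAP, where su1 and pho1 differed by 4.02 and 3.93 between the same ears.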

How the data were processed

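RNA of kernels from 40 libraries was sequenced (4 lines, 5 DAP, 2 ears). Per the labels, the authors aligned reads with Bowtie 0.12.2 to B73 RefGen_v3 and computed FPKM for each gene with Cuffdiff, from its length and its read count, and the deposited table holds these FPKM values with no counts. The table also has 25650 loci assembled by the authors, and reads of an enzyme gene may have gone to one of them. From the FPKM, limma 3.58.1 (R 4.3.3) was fitted to log2(FPKM + 1) with 1 mean for each of 20 groups and a trend on the mean level, two-sided, with Benjamini-Hochberg adjustment over 43394 genes. Ratios, on the log2 scale with 1 added to both FPKM values, were tested by exact permutation within lines or within DAP, adjusted over 20 and 10 comparisons (scipy 1.17.1). The named genes were all 8 enzymes, counts over 10 other starch genes, and the genes most alike over group means. Names were looked up in RefSeq, where 6 of the 8 were found. Members and lists were chosen with earlier results of these data known. Alternatives were a pseudocount of 0.1, no filter, median-ratio rescaling, the ear number as a block, the 20 libraries of a pair of lines alone, and leaving out each library. Steps were tested on simulated data. No genome of this build was used here, so no sequence or position is given.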

Additional observations from a re-analysis of the deposited data

Results flagged for a closer look

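The course over DAP differed between the 4 lines for 5 of the 8 enzyme genes, against 22.9% of all genes tested. The test was the F test of the line by DAP interaction in limma with Benjamini-Hochberg adjustment. The adjusted p was 0.0020912 for ae1, 0.0055595 for su1, 0.0056541 for pho1, 0.0067062 for zpu1 and 0.023702 for SBEI. For SBEI the call was lost without ear 1 of T210 at 40 DAP (adjusted p = 0.0642) or ear 2 (adjusted p = 0.0705), and the other 4 calls were kept in each of the 40 models that left out 1 library. The interaction does not say which step or which lines differ.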

How the results depend on the processing

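Groups held 2 ears and the number of reads is unknown, which limits the precision of low levels, such as those of ae1 at 40 and 50 DAP. No result that passed the test changed sign under any alternative, although some that did not pass crossed 0 without 1 library, such as SBEI at the step to 30 DAP (-0.16 to 0.07). Of 89 calls of single genes or ratios, 56 were kept without any 1 library and 33 were lost without some library. The count of enzyme genes called at the step to 50 DAP was 2, but 1 with a pseudocount of 0.1, 1 without the filter on low values and 1 with the replicate block, and it ran from 0 to 2 over the models that left out 1 library. For T209 minus T210 averaged over DAP it was 3, but 1 in a model of the 20 libraries of these lines alone, and it ran from 1 to 4 without 1 library. For T191 minus T147 at single DAP the count was 4 and ran from 1 to 6 without 1 library, with 1 call left without ear 1 of T147 at 30 DAP. The other counts stayed within 1.5 times their value under each alternative named in the methods. The ear numbers did not pair the samples: over 190 pairs of groups, the correlation of deviations between ears of the same number had a median of 0.014 and ran from -0.370 to 0.466, with 35 pairs over 0.1. With the ear number as a replicate block, 259 single-gene results stayed on their side of the threshold and 5 calls were lost, those of SBEIIa at the step to 20 DAP (limma adjusted p = 0.0525), iso2 at the steps to 30 and 50 DAP (adjusted p = 0.0511 and 0.0547), pho1 in T209 minus T210 at 30 DAP (adjusted p = 0.0507) and su1 at the step to 30 DAP in T210 (adjusted p = 0.0533). Rescaling moved 10 single-gene results across the threshold (6 gained, 4 lost), leaving out the filter 10 (all lost) and the pseudocount of 0.1 9 (3 gained, 6 lost).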

Other observations

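A further branching enzyme gene, GRMZM2G005298 (sbe3 in RefSeq), was looked at after the values of the other 3 had been seen. Its level had medians of 0.651, 0.347, 0.463, 0.495 and 0.686 FPKM at the 5 DAP in turn, with a range of 0.214 to 1.41 FPKM over the 40 libraries. At 40 and 50 DAP these medians lie near those of ae1 (0.706 and 0.406 FPKM), and no test was run between the genes. None of the 8 enzyme genes was at 0 in any library, and ae1 was under 1 FPKM in 14, zpu1 in 7, su1 in 2 and iso3 in 1 of the 40 libraries.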
